A study of Mus musculus with 18 samples.

Results

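The Schlafen family is a group of related mouse genes that lie side by side on chromosome 11 and take their name from the German word for sleep, because the first of them slowed the growth of developing T cells. In this series 7 members were taken by gene symbol from the deposited expression table, namely Slfn1, Slfn2, Slfn3, Slfn4, Slfn5, Slfn8 and Slfn9, out of 25926 genes listed. All 7 averaged 1 FPKM or more across the 18 samples (FPKM, mapped fragments scaled to gene length and to the sample's total, so that levels of different genes can be set beside each other), and all 7 passed the filter on low values in each comparison. Their levels were not part of the rule, but the family was chosen with earlier results of these data known.

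Schlafen proteins are sorted by length. Slfn1 and Slfn2 are short, Slfn3 and Slfn4 are intermediate, and Slfn5, Slfn8 and Slfn9 are long, with an added part related to RNA helicases. Several are known as interferon-stimulated genes of macrophages and lymphocytes: type I interferon acts through its receptor, the kinases Jak1 and Tyk2 and a complex that includes Stat2 and Irf9, which binds a promoter element called the ISRE. The family is best known for a tie to quiescence, since T cells and monocytes that lack working Slfn2 fail to stay at rest.

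The samples were bone marrow-derived macrophages (BMDMs), grown from C57BL/6J mouse marrow in M-CSF at 50 ng/mL over 7 days. They were kept above renal tubular epithelial cells (TECs), parted from them by a Transwell membrane with 0.4 μm pores, so soluble factors could pass while the cells stayed apart. All 3 groups, of 6 samples each, shared the coculture. In NC the TECs had no crystals and the BMDMs were given PBS. In COM the BMDMs were also given PBS, and the TECs beneath were exposed to calcium oxalate monohydrate (COM) crystals at 100 μg/mL for 24 h. In COM+Met the TECs were exposed to COM in the same way and the BMDMs were given Met at 5 mM for 24 h, a name the labels leave as an abbreviation. COM against NC asks how macrophages responded to crystal-exposed TECs, and COM+Met against COM asks how Met changed that response. Nothing in the sources used here says whether a group's 6 samples were from different mice or cultures, and p-values therefore reflect sample-to-sample spread alone, which may be technical.

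The samples of NC and COM were not uniform. Over the 10751 genes that averaged 1 FPKM or more, log2 values correlated at 0.992 to 0.994 among COM-1 to COM-3, but at 0.888 to 0.951 between these and COM-4 to COM-6. COM-6 in turn stood apart from COM-4 and COM-5 (0.930 to 0.935, against 0.995 between those), so COM-4 to COM-6 are not a uniform set. The correlations were 0.938 to 0.962 between NC-1 to NC-4 and NC-5 and NC-6. Within COM+Met the correlations were 0.989 to 0.995. The labels name no batch for these samples, so results that rest on them are given with and without them. FPKM sums ran from 380731 to 449186 per sample. Read depth cannot be learnt from them, so no counting interval can be given. All 9 macrophage markers looked at (Adgre1, Csf1r, Cd68 and others) averaged 1 FPKM or more, and 3 of them rose in COM against NC.

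In GENCODE M21 on the build GRCm38 the 7 members span chr11:82951349-83215154. This annotation is of a later build than the mm8 and mm9 named in the submitters' processing notes, and the deposited table has no coordinates of its own. Slfn5 (ENSMUSG00000054404, plus strand) lies at chr11:82951349-82964840, Slfn9 (ENSMUSG00000069793, minus strand) at chr11:82978390-82991830 and Slfn8 (ENSMUSG00000035208, minus strand) at chr11:83002158-83020810. On the plus strand follow Slfn2 (ENSMUSG00000072620) at chr11:83065112-83070678, Slfn1 (ENSMUSG00000078763) at chr11:83116849-83122670, Slfn4 (ENSMUSG00000000204) at chr11:83175186-83190216 and Slfn3 (ENSMUSG00000018986) at chr11:83191330-83215154. All are annotated as protein-coding, and the 3 long members stand together at the low end of the span.

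Because the ISRE is the element through which type I interferon is known to act, the RefSeq promoter windows of all 7 members (250 bases before to 50 after each start, build GRCm38.p6) were searched on both strands for its core, taken as GAAA, any 2 bases and GAAA again. The letters were found in 3 of 7 members, Slfn5, Slfn8 and Slfn9, against 3.99% of the 27025 genes with a window. These are the 3 long members, and the stretch around each match is shown here 5′ to 3′ along the gene's strand, with the match in capitals.
Slfn5, chr11:82951922-82951981, plus strand: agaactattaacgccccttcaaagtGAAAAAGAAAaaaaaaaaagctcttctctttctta
Slfn8, chr11:83020824-83020883, minus strand: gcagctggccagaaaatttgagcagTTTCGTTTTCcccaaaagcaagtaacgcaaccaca
Slfn9, chr11:82991841-82991900, minus strand: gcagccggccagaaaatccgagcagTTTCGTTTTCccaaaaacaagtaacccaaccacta
The Slfn5 match runs from -155 to -146 relative to the start and reads along the gene. In Slfn8 and Slfn9 the match reads on the opposite strand, from -48 to -39 and from -45 to -36 (from -136 for another RefSeq start of Slfn8). The windows of Slfn8 and Slfn9 were 80.8% identical (252 of 312 aligned columns), while every other pair of members had 46.5% to 53.0%. The GAS element (TTC, any 3 bases, GAA) and the κB element (GGGA, any 2 bases, TTCC) were in none of the 7 members' windows, against 9.55% and 1.63% of genes. A match of letters is a description of the window and does not show that a factor binds there.

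In COM against NC, 6 of the 7 members rose, and Slfn9 did not pass the test (limma on log2(FPKM + 1), Benjamini-Hochberg adjustment over 10900 genes, called at an adjusted p below 0.05 and at least 2-fold). Of all genes tested, 5.99% were called higher and 11.7% lower, so the 6 of 7 members stand against a background of 5.99%. The same 6 members had every COM sample above every NC sample, which held for 8.6% of genes. The ratio of mean FPKM ran from 2.22 for Slfn2 to 142 for Slfn4. The fitted change of Slfn4 ranked 8 and that of Slfn1 ranked 14 from the highest of the 10900 genes. The median change of all genes was -0.27 on the log2 scale, and relative to it the members' changes were larger by that amount, from 0.53 for Slfn9 to 6.32 for Slfn4. With size factors in place of the deposited scaling that median was -0.0062 and 50.8% of called genes were higher in place of 33.9%, while 6 members were again called higher. Without NC-5 and NC-6, 5 members were called higher (5.03% of genes). Without COM-4 to COM-6, 4 were called higher (5.37% of genes) and 1, Slfn9, lower (7.46% of genes), and without COM-1 to COM-3 all 7 were called higher (6.39% of genes).

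**Figure D1:**
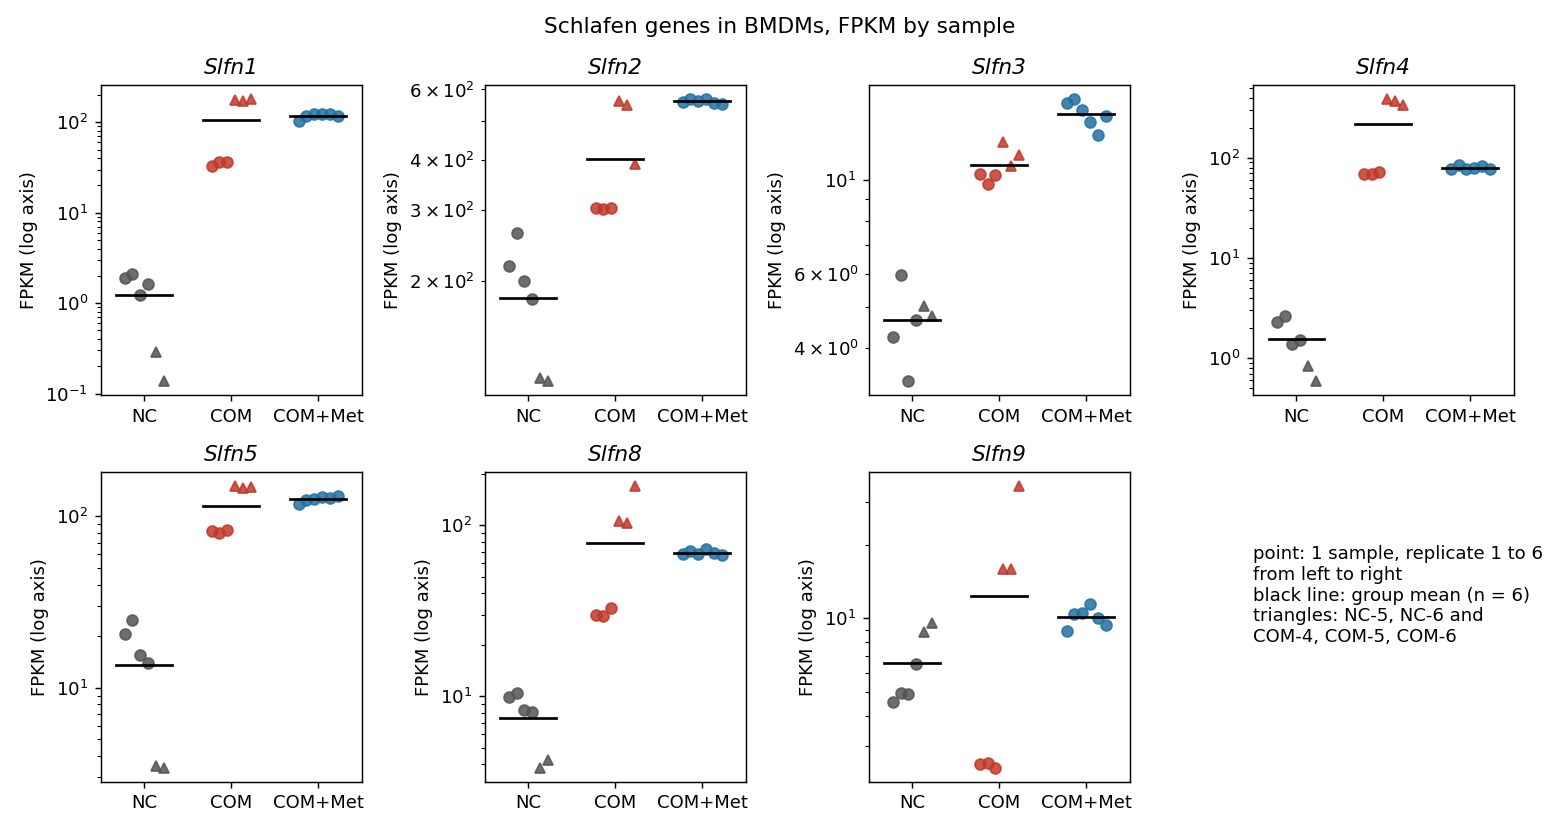
FPKM of the 7 Schlafen genes on a log axis in each sample of NC (grey), COM (red) and COM+Met (blue), with the replicates from left to right and a black line at the group mean; triangles mark NC-5, NC-6 and COM-4 to COM-6. In every panel except that of Slfn9 the COM and COM+Met points lie above all NC points, and in all 7 panels COM-4 to COM-6 lie above COM-1 to COM-3.

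Among the short members, Slfn1, which restrains the growth of thymocytes when overexpressed, was close to silent in NC. Its NC samples ranged from 0.138 to 2.10 FPKM with a median of 1.42, and its COM samples from 32.6 to 181 with a median of 105. The COM values fell into 2 sets, 32.6 to 36.2 in COM-1 to COM-3 and 174 to 181 in COM-4 to COM-6, and the groups did not overlap. The fitted log2 change was 5.28 (SE 0.51, limma adjusted p = 4.33e-06), and the ratio of the mean levels, 106 ± 78.2 FPKM against 1.22 ± 0.832 (SD, n = 6 each), was 87.5. The fitted change is smaller than this ratio because 1 is added to each value before the logarithm, which tells most on low levels. In COM+Met the samples lay at 103 to 124 FPKM (median 120), between the 2 sets of COM samples.

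Slfn2, the member that keeps T cells and monocytes quiescent, had the highest level of the family in each of the 18 samples, although in COM its range overlapped that of Slfn4. It ranged from 112 to 263 FPKM in NC (median 190), from 301 to 562 in COM (median 347) and from 553 to 568 in COM+Met (median 560). Every COM and COM+Met sample was above every NC sample, and the COM+Met samples differed from each other by little. The log2 change in COM against NC was 1.16 (SE 0.25, limma adjusted p = 0.00189), from a mean of 181 ± 59.3 to 402 ± 124 FPKM (SD, n = 6). This call rested on the fold limit: without NC-5 and NC-6 the change was 0.86 (adjusted p = 0.0103) and without COM-4 to COM-6 it was 0.81 (adjusted p = 0.0263), both under 2-fold.

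Of the intermediate members, Slfn3, a gene of T cell activation, had the smallest fitted change of the 6 that rose, close to that of Slfn2, and the lowest spread relative to its mean in NC and in COM. NC samples lay between 3.35 and 5.95 FPKM (median 4.72), COM samples between 9.79 and 12.3 (median 10.5) and COM+Met samples between 12.7 and 15.5 (median 14.3). The 3 groups did not overlap and stood in the order NC, COM, COM+Met. Against NC, COM was higher by 1.07 on the log2 scale (SE 0.11, limma adjusted p = 7.07e-06), just past the fold limit. Without NC-3 it was 0.99, and without COM-4 to COM-6 it was 0.98, under 2-fold in both with adjusted p = 1.18e-05 and 0.000196.

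Slfn4, an interferon-inducible gene of activated myeloid cells, had the largest change of the family. NC samples ranged from 0.592 to 2.61 FPKM (median 1.45) and COM samples from 68.6 to 387 (median 205). Within COM, replicates 1 to 3 were at 68.6 to 71.5 FPKM and replicates 4 to 6 at 339 to 387, all far above NC. The log2 change was 6.05 (SE 0.50, limma adjusted p = 1.17e-06), and the mean rose from 1.54 ± 0.791 to 218 ± 163 FPKM (SD, n = 6). COM+Met samples were at 77.1 to 84.1 FPKM (median 78.3), above the lower COM set and well below the higher one.

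Slfn5, a long member that is nuclear and induced by type I interferon, was at 3.42 to 24.9 FPKM in NC (median 14.8). It rose to 80.3 to 151 FPKM in COM (median 115) and was at 117 to 132 in COM+Met (median 127). The lowest values of all were those of NC-5 and NC-6, at 3.49 and 3.42 FPKM, and no treated sample overlapped NC. The log2 change in COM was 3.23 (SE 0.44, limma adjusted p = 7.39e-05), with a ratio of means of 8.45. Slfn8, another long member, ranged from 3.83 to 10.5 FPKM in NC (median 8.18), from 29.5 to 170 in COM (median 67.5) and from 67.0 to 72.3 in COM+Met (median 68.5). Its COM replicates 1 to 3 lay at 29.5 to 32.8 and replicates 4 to 6 at 102 to 170 FPKM. The log2 change in COM was 2.96 (SE 0.45, limma adjusted p = 0.000157), and the ratio of means was 10.5.

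Slfn9, the long member next to Slfn8, had a pattern of its own. NC samples ranged from 4.55 to 9.60 FPKM (median 5.75), COM samples from 2.45 to 34.9 (median 9.23) and COM+Met samples from 8.85 to 11.4 (median 10.2). COM-1 to COM-3, at 2.45 to 2.57 FPKM, were all below the lowest NC sample, while COM-4 to COM-6, at 15.9 to 34.9 FPKM, were all above the highest. Over the 12 samples the log2 change was 0.26 with a 95% interval from -0.95 to 1.47 (limma adjusted p = 0.709, exact permutation p = 0.684), which leaves room for a change of more than 2-fold upwards. With COM-1 to COM-3 alone the change was -1.06 (SE 0.21, adjusted p = 0.00266) and with COM-4 to COM-6 alone 1.57 (SE 0.30, adjusted p = 0.00129), while without COM-6 alone it was -0.15 (adjusted p = 0.801). Only 15 of the 10900 genes (0.138%) had all of COM-1 to COM-3 below every NC sample and all of COM-4 to COM-6 above every NC sample, and Slfn9 was the 1 Schlafen gene among them.

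Each of the 6 members that rose gave the smallest two-sided exact permutation p that 6 samples against 6 allow, 0.00216 (924 splits, not adjusted). In these bulk samples more cells with a transcript and more transcript per cell cannot be told apart. Of the other Schlafen-family genes looked for, Slfnl1 was listed at 0 in every sample and Slfn14 at 0 in all samples but NC-2 (0.0172 FPKM). Slfn10-ps was not listed under that symbol, so its level was not analysed here.

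**Figure D2:**
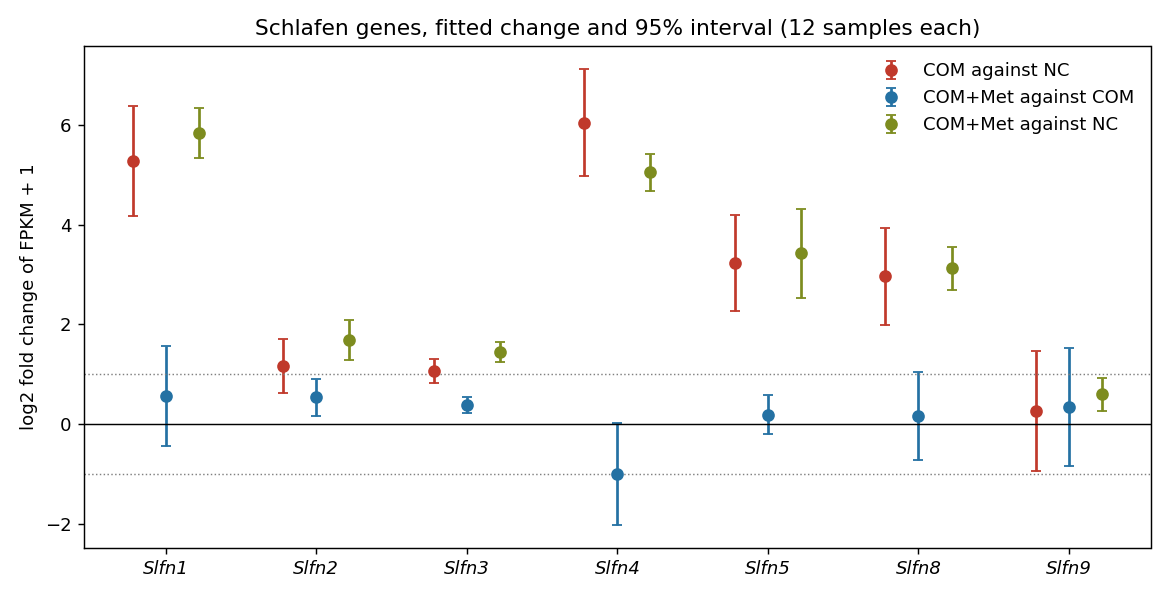
Fitted log2 change of FPKM + 1 for each Schlafen gene, with bars for the 95% interval, in COM against NC (red), COM+Met against COM (blue) and COM+Met against NC (green), 12 samples in each; dotted lines mark 2-fold. For the 6 members other than Slfn9 the intervals of both comparisons with NC lie above 0, while in COM+Met against COM only those of Slfn2 (0.17 to 0.90) and Slfn3 (0.21 to 0.54) exclude 0.

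With Met added, 0 of 7 members were called in COM+Met against COM, where limma called 0.608% of 10364 genes higher and 1.61% lower. At an unadjusted p under 0.05 there were 2, Slfn2 and Slfn3, both higher, where 13% of genes were higher at that threshold, and the exact permutation test gave the same 2 members. This comparison uses the same COM samples as COM against NC, so the estimates of both are tied. Slfn3 was higher in COM+Met by 0.38 on the log2 scale (SE 0.08, limma adjusted p = 0.0064, a threshold that 5.77% of genes passed upwards), under 2-fold, from 10.8 ± 0.899 to 14.3 ± 1.02 FPKM (SD, n = 6), and 6 of 6 COM+Met samples were above all COM samples, which held for 5.83% of genes. Slfn2 was higher by 0.53 (SE 0.17, limma adjusted p = 0.0544, exact permutation p = 0.0108), which did not pass the adjusted threshold. It passed, under 2-fold, with quantile normalisation (0.61, limma adjusted p = 0.0232), with sample weights (0.85, limma adjusted p = 5.42e-08), without COM-4 to COM-6, and with COM-4 (0.64, limma adjusted p = 0.0143), COM-5 (0.63, limma adjusted p = 0.0182) or COM-6 (0.54, limma adjusted p = 0.0409) left out alone.

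For the other members the difference between COM+Met and COM was not resolved. The estimate for Slfn4 was -0.996 (95% interval -2.02 to 0.03, limma adjusted p = 0.186), that for Slfn1 was 0.56 (-0.44 to 1.57, limma adjusted p = 0.454) and that for Slfn9 was 0.34 (-0.84 to 1.52, limma adjusted p = 0.725). Slfn5 had 0.19 (-0.20 to 0.58, limma adjusted p = 0.523) and Slfn8 had 0.16 (-0.71 to 1.04, limma adjusted p = 0.825). Of these intervals only that of Slfn5 stays within 2-fold in both directions. Where COM-1 to COM-3 were the only COM samples, limma called Slfn1 (1.72), Slfn8 (1.15) and Slfn9 (1.65) higher in COM+Met, against 2.28% of genes, while Slfn4 (0.19) and Slfn5 (0.62) were above 0 and under 2-fold. Where COM-4 to COM-6 were the only COM samples, Slfn4 was called lower (-2.18), against 1.28% of genes, and Slfn1 (-0.59), Slfn5 (-0.23), Slfn8 (-0.82) and Slfn9 (-0.98) were also below 0. The direction for 5 members thus turned on which COM samples entered, while the estimates for Slfn2 and Slfn3 were above 0 with either set. Those for Slfn2 were 0.88 with COM-1 to COM-3 and 0.18 with COM-4 to COM-6 (limma adjusted p = 1.90e-09 and 0.25), and those for Slfn3 were 0.46 and 0.29 (limma adjusted p = 5.16e-05 and 0.0293).

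**Figure D3:**
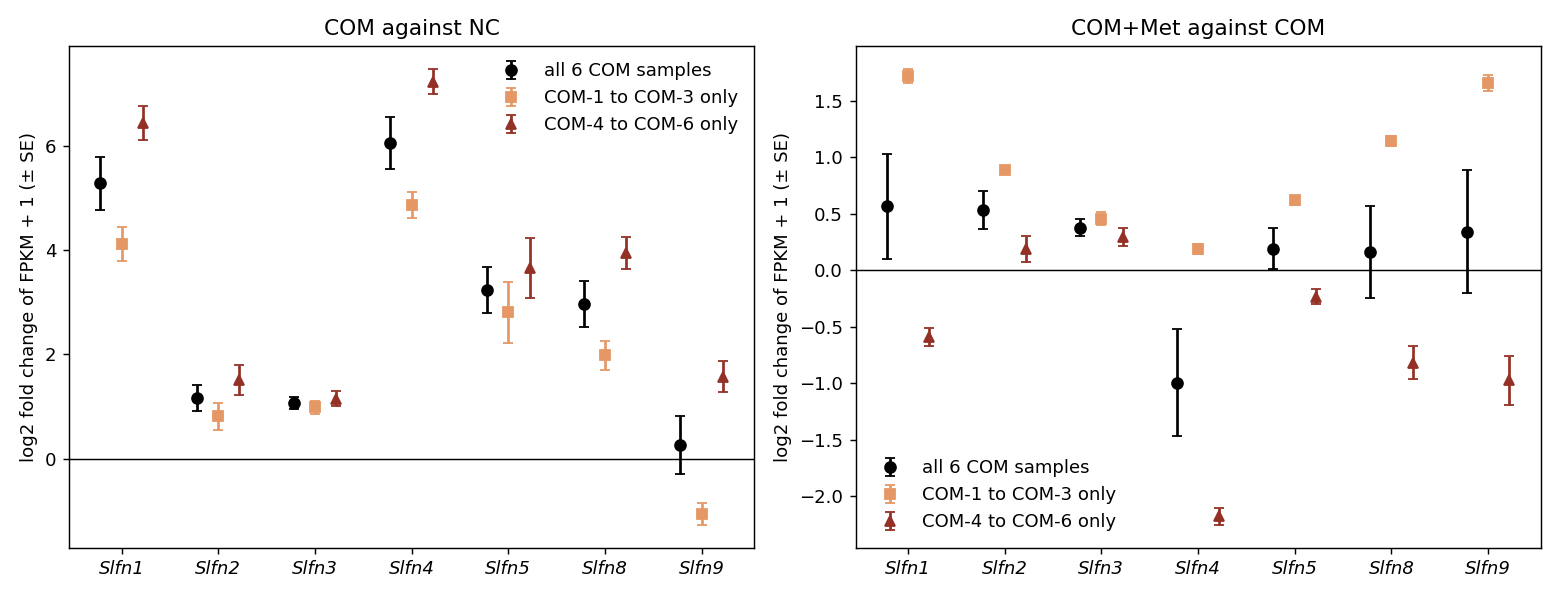
Fitted log2 change of FPKM + 1 with bars for ± SE, in COM against NC (left) and COM+Met against COM (right), with all 6 COM samples (black circles), COM-1 to COM-3 only (orange squares) or COM-4 to COM-6 only (dark red triangles). On the left only Slfn9 lies on both sides of 0, at -1.06 and 1.57; on the right Slfn1, Slfn4, Slfn5, Slfn8 and Slfn9 do so.

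Set directly against NC, 6 of 7 members were called higher in COM+Met, as against 5.66% of 10786 genes. Slfn1 was higher by 5.84 on the log2 scale (SE 0.23, limma adjusted p = 2.23e-10) and Slfn4 by 5.05 (SE 0.17, adjusted p = 5.19e-11). Changes of 3.43 (SE 0.41) for Slfn5, 3.13 (SE 0.20) for Slfn8, 1.69 (SE 0.18) for Slfn2 and 1.44 (SE 0.09) for Slfn3 followed. Slfn9 was also higher, by 0.60 (SE 0.16, limma adjusted p = 0.00353, exact permutation p = 0.00866), under 2-fold, where 19.3% of genes passed the same threshold upwards, with 4 of 6 COM+Met samples above all NC samples. With all 18 samples in the same fit its adjusted p was 0.284. The 6 members called were also those without overlap, against 14.1% of genes, and without NC-5 and NC-6 the count was again 6 (5.09% of genes called higher). These values share the NC samples with COM against NC and are no independent support for it.

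The spread of the members differed by group. In COM+Met the coefficient of variation (SD as a percentage of the mean) ran from 1.14% for Slfn2 to 8.97% for Slfn9. In COM it ran from 8.33% for Slfn3 to 104% for Slfn9, and in NC from 18.4% for Slfn3 to 68.5% for Slfn1. Within COM, all 7 members had COM-4 to COM-6 above COM-1 to COM-3, a pattern of 8.99% of genes, whereas 44.7% of genes had the opposite order. The ratio between the 2 sets of samples was 8.84 for Slfn9, 5.23 for Slfn4, 5.08 for Slfn1 and 4.11 for Slfn8, and only 1.24% of genes reached 4. With COM-6 left out the ratios were 6.33, 5.42, 5.03 and 3.40, so that Slfn8 no longer reached 4 (1.21% of genes did). The ratio was smaller for Slfn5 (1.81), Slfn2 (1.65) and Slfn3 (1.13). Short, intermediate and long members stood on each side of that gap.

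Within NC the members split in opposite directions. Slfn1, Slfn2, Slfn4, Slfn5 and Slfn8 were higher in each of NC-1 to NC-4 than in NC-5 and NC-6, as were 27.1% of genes, by ratios of 1.90 for Slfn2 to 8.09 for Slfn1. Slfn9 had the reverse order, as did 29.0% of genes, with a ratio of 0.571, and Slfn3 overlapped. In COM+Met, 5 members (Slfn1, Slfn4, Slfn5, Slfn8 and Slfn9) lay above all of COM-1 to COM-3 and below all of COM-4 to COM-6, a pattern of 1.79% of genes.

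The family's summed level and its makeup shifted with COM. The 7 members added up to 217 to 314 FPKM in NC-1 to NC-4 but only 135 to 137 in NC-5 and NC-6. The sum was 528 to 541 in COM-1 to COM-3, 1274 to 1412 in COM-4 to COM-6 and 947 to 997 in COM+Met. Slfn2 made up 83.2% to 85.2% of the sum in the NC samples, 56.2% to 57.3% in COM-1 to COM-3, 30.7% to 40.0% in COM-4 to COM-6 and 56.7% to 58.8% in COM+Met. Slfn4 was at most 0.880% of the sum in NC, 13.0% to 13.2% in COM-1 to COM-3, 26.6% to 27.4% in COM-4 to COM-6 and 7.85% to 8.50% in COM+Met. By makeup, the COM+Met samples had a Slfn2 share near that of the lower COM set but a smaller Slfn4 share than any COM sample.

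**Figure D4:**
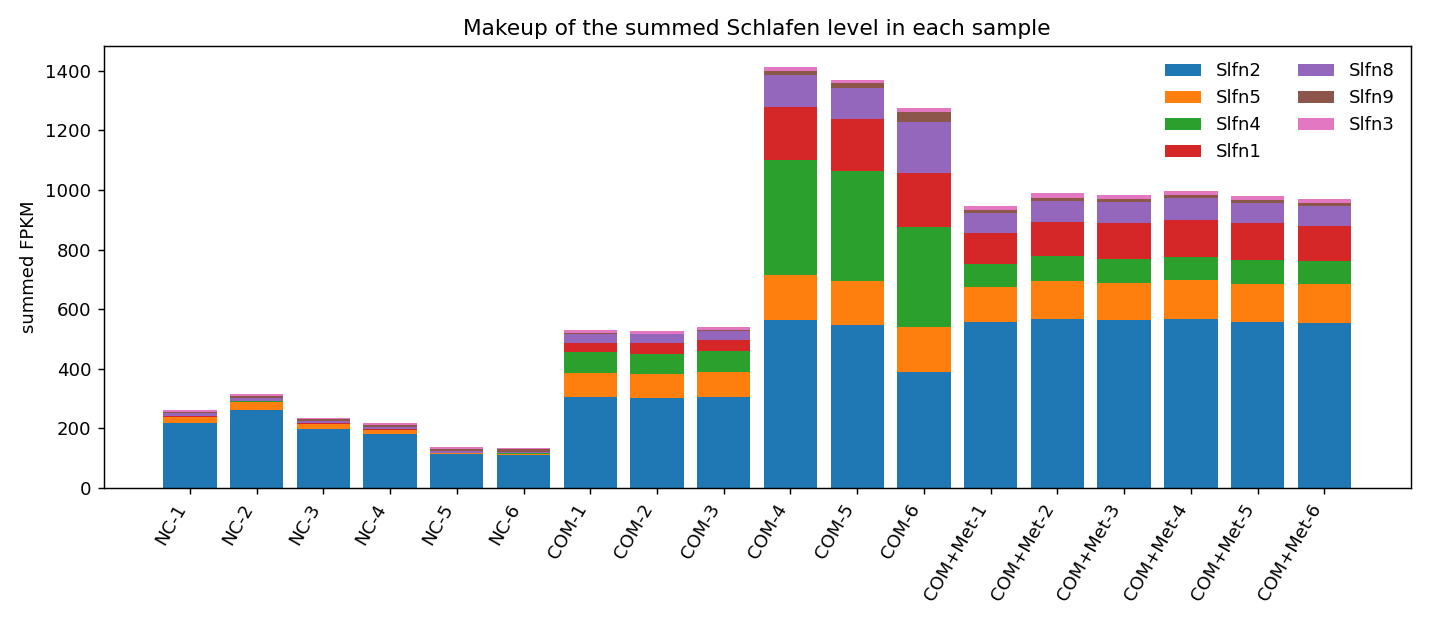
Summed FPKM of the 7 Schlafen genes in each of the 18 samples, as stacked bars from 0 with a colour for each gene. Slfn2 fills most of each NC bar, and the COM-4 to COM-6 bars reach 1274 to 1412 FPKM with wide parts for Slfn4, Slfn1 and Slfn8.

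By mean FPKM the order in NC was Slfn2, Slfn5, Slfn8, Slfn9, Slfn3, Slfn4 and Slfn1. Only the steps from Slfn2 to Slfn5 and from Slfn3 to Slfn4 were free of overlap between the samples of neighbouring genes. In COM the order was Slfn2, Slfn4, Slfn5, Slfn1, Slfn8, Slfn9 and Slfn3, with overlap at every step. In COM+Met it was Slfn2, Slfn5, Slfn1, Slfn4, Slfn8, Slfn3 and Slfn9, in the same order in 6 of 6 samples, and only Slfn5 and Slfn1 overlapped in range. Slfn1 was thus the lowest member in NC and stood above Slfn8, Slfn3 and Slfn9 in both groups with crystals.

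Members with related sequence did not keep a fixed ratio. Slfn9 over Slfn8 ran from 0.459 to 0.807 in NC-1 to NC-4 but 2.27 to 2.29 in NC-5 and NC-6. It was 0.0748 to 0.0869 in COM-1 to COM-3, 0.150 to 0.205 in COM-4 to COM-6 and 0.130 to 0.158 in COM+Met. So Slfn9 was above its neighbour only in NC-5 and NC-6, although their promoter windows are alike and both hold the ISRE core. Slfn4 over Slfn3 went from 0.321 to 0.540 in NC-1 to NC-4, or 0.124 to 0.166 in NC-5 and NC-6 up to 6.73 to 7.01 in COM-1 to COM-3 and 29.7 to 34.5 in COM-4 to COM-6, and was 5.11 to 6.53 in COM+Met. Reads could be shared with other genes, so stretches of 50 bases in the members' GENCODE transcripts were looked up in all other genes. In Slfn3 15.6% of them also occur in another gene, in Slfn8 14.6%, in Slfn9 11.5% and in Slfn4 10.8%. The shares were 4.27% in Slfn2, 3.37% in Slfn5 and 0.606% in Slfn1. For Slfn8 and Slfn9 the family gene that shared most was Slfn10-ps (10.1% and 8.10% of stretches), and Slfn5 shared 0 with the family. How the authors' counting split such reads is not given in the sources used here, so the levels of Slfn3, Slfn4, Slfn8 and Slfn9 are less certain. Antisense genes overlap Slfn5 (Slfn5os) and Slfn2 (Gm20234), and whether counting used strand is not stated either.

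**Figure D5:**
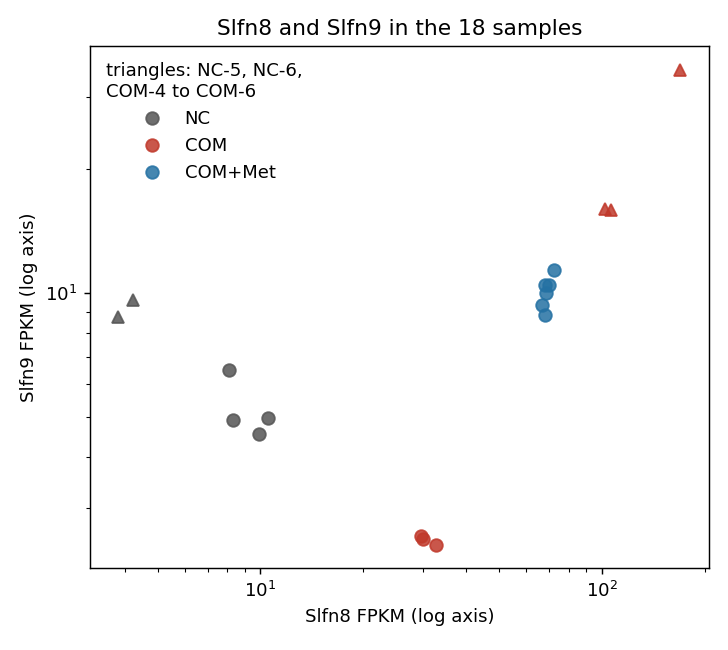
Slfn9 against Slfn8 in FPKM, both on log axes, 1 point for each of the 18 samples; triangles mark NC-5, NC-6 and COM-4 to COM-6. Slfn8 is higher in all COM and COM+Met samples than in NC, while Slfn9 is lowest in COM-1 to COM-3 (2.45 to 2.57 FPKM) and highest in COM-4 to COM-6 (15.9 to 34.9 FPKM).

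Most other genes of the interferon pathway also rose in COM against NC. Of 12 tested genes of type I interferon signalling, limma called 8 higher and 0 lower (9 and 0 at an unadjusted p under 0.05), with a median log2 change of 1.40 against -0.27 over all genes tested. The largest rises were those of Irf7, the factor that amplifies interferon transcription (6.05, SE 0.32), and Usp18, a brake on the receptor (4.38, SE 0.60). Ifnb1, which encodes interferon beta, was below the filter, with means of 0.0407 FPKM in NC, 0.446 in COM and 0.426 in COM+Met. The 14 interferon-stimulated effectors were all called higher (median 4.67), led by the antiviral genes Ifit3 (6.06, SE 0.60), Isg15 (5.44, SE 0.54) and Rsad2 (5.40, SE 0.94). The changes of Slfn4 (6.05) and Slfn1 (5.28) lay near those of these antiviral genes, and the other 5 members changed by less than the median effector.

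In COM+Met against COM, 0 of 12 signalling genes and 0 of 14 effectors were called by limma (1 and 2 were higher, and 0 lower, at an unadjusted p under 0.05), with medians of 0.12 and 0.60. The summed level of the effectors followed the same sets of samples as the Schlafen genes: 149 to 253 FPKM in NC-1 to NC-4, 48.9 to 58.2 in NC-5 and NC-6, 1669 to 1781 in COM-1 to COM-3, 6226 to 8127 in COM-4 to COM-6 and 5104 to 5468 in COM+Met. As with 5 Schlafen members, COM+Met lay between the sets of COM samples. With COM-1 to COM-3 as the only COM samples 12 effectors and 2 signalling genes were called higher in COM+Met, and with COM-4 to COM-6 as the only ones 3 effectors were called lower. Against NC, COM+Met had 8 signalling genes (median 1.71) and all 14 effectors (median 5.15) called higher. Without COM-4 to COM-6, or without NC-5 and NC-6, COM against NC still had 7 signalling genes and 13 effectors called higher.

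Because the family is named for growth arrest, genes of quiescence and of proliferation were counted beside it. Of 14 tested genes of quiescence and growth arrest, COM against NC had 0 called higher and 5 lower. At an unadjusted p under 0.05 the counts were 0 and 9. Of all genes tested, 5.99% were called higher and 11.7% lower. The median log2 change of these 14 genes was -0.50, against -0.27 over all genes tested. The largest falls were in Cdkn2c, which encodes an inhibitor of the kinases Cdk4 and Cdk6 (-2.94, SE 0.19), Tob1, an antiproliferative gene (-2.18, SE 0.19), and Klf4, a transcription factor (-2.15, SE 0.30). Of 15 proliferation genes, 13 were called lower and 0 higher, also at an unadjusted p under 0.05, with a median of -3.20, led by Ube2c (-4.90, SE 0.24), Stmn1 (-4.84, SE 0.28) and Ccnb2 (-4.53, SE 0.20), all genes of mitosis. Summed, they reached 393 to 496 FPKM in NC-1 to NC-4, 778 to 792 in NC-5 and NC-6, 100 to 101 in COM-1 to COM-3, 86.6 to 97.2 in COM-4 to COM-6 and 92.7 to 100 in COM+Met. Proliferation genes were therefore highest where Slfn1, Slfn2, Slfn4, Slfn5 and Slfn8 were lowest, in NC-5 and NC-6, but did not differ between the sets of COM samples in the way that those members did. Without COM-4 to COM-6, COM against NC had 4 quiescence and 14 proliferation genes called lower, where 7.46% of all genes were. Without NC-5 and NC-6 the counts were 5 and 12, where 15.7% of all genes were called in either direction (32.1% of these higher). Without COM-1 to COM-3 they were 5 and 13, where 25.9% of all genes were called in either direction (24.6% of these higher). In COM+Met against COM, 0 of 13 quiescence genes and 0 of 9 proliferation genes were called (5 quiescence genes were lower and no other was past an unadjusted p of 0.05). With either set of COM samples alone, 0 of these genes were called there. Against NC, COM+Met had 7 quiescence genes and 12 proliferation genes called lower. There 19.3% of all genes were called in either direction, and 29.4% of these were higher.

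In COM against NC the genes that flank the family on chromosome 11 did not move with it as a block. Of 8 tested neighbours, limma called 1 higher in COM against NC and 0 lower (1 and 4 at an unadjusted p under 0.05), with a median of -0.23, close to the -0.27 of all genes. The 1 was Ccl5, a chemokine gene (9.12, SE 0.42). COM+Met against COM had 0 of 8 called, with a median of 0.25 against 0.0033 over all genes. At an unadjusted p under 0.05 in limma 4 of 8 were higher there and 0 lower, where 13% of all genes were higher. COM+Met against NC again had 1 called, Ccl5 (9.82, SE 0.26). Without COM-4 to COM-6, COM+Met against COM had 1 of 8 called higher, where 2.28% of all genes were. Without COM-1 to COM-3 that comparison had 0.

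Markers of macrophages and of other cells also differed between the groups, and their part in the Schlafen values was not tested. Of the 9 macrophage markers 3 were called higher in COM against NC by limma, namely Adgre1 (mean 112 to 577 FPKM), Cd14 (64.7 to 401) and Fcgr1 (8.05 to 83.7), and the same 3 in COM+Met against NC. Mertk was lower in COM against NC (-0.76, limma adjusted p = 0.0193), under 2-fold. In COM+Met against COM 0 were called, with Itgam lower (-0.84, limma adjusted p = 0.00722) and Cd68 higher (0.56, limma adjusted p = 0.00274), both under 2-fold. The sum of the 9 was 11086 to 15624 FPKM in NC, 10605 to 14300 in COM and 12315 to 17057 in COM+Met. Most of that sum was Lyz2 (mean 11610 FPKM in NC, 9517 in COM and 12776 in COM+Met). For neutrophils 5 of 11 markers averaged 1 FPKM or more, and Mpo, Retnlg and Ly6g were below 1 in every sample. Summed, they reached 876 to 1017 FPKM in NC-1 to NC-4, 535 to 556 in NC-5 and NC-6, 517 to 552 in COM-1 to COM-3, 170 to 231 in COM-4 to COM-6 and 74.0 to 137 in COM+Met. By mean, Mmp8 was the highest marker (336 FPKM in NC, 175 in COM and 68.7 in COM+Met), followed by S100a8 (254, 169 and 23.5). Camp averaged 4.33, 7.93 and 3.08 FPKM. Limma called 4 of 7 tested markers lower in COM against NC, where 11.7% of all genes were. In COM+Met against COM it called 4 of 4 lower, where 1.61% of all genes were. None was called higher. The neutrophil sum was lowest in COM+Met, whereas the summed Schlafen level was highest in COM-4 to COM-6. Within NC both sums were lower in NC-5 and NC-6. Of 10 TEC markers only 1, Cdh1, averaged 1 FPKM or more, 8 were below 1 in every sample, and Umod and Krt18 were listed at 0 throughout. The sum was 10.9 to 18.2 in NC, 0.468 to 1.35 in COM and 0.0435 to 0.324 in COM+Met. Most of the NC sum was Cdh1 (mean 12.9 FPKM in NC, 0.555 in COM and 0.0693 in COM+Met), so its fall is mainly that of 1 gene. Dendritic cell markers (4 of 6 at 1 FPKM or more) summed to 18.1 to 26.9 in NC-1 to NC-4, 2.51 to 3.96 in NC-5 and NC-6, 206 to 225 in COM-1 to COM-3, 63.9 to 67.9 in COM-4 to COM-6 and 38.7 to 76.2 in COM+Met. Most of this sum was Ccr7 (mean 9.94 FPKM in NC, 133 in COM and 55.7 in COM+Met), a migration receptor, while Clec9a had means of 3.40, 2.37 and 0.764 FPKM and Xcr1 and Siglech were below 1 in every sample. Stromal markers (5 of 7) summed to 14.4 to 60.4 in NC, 4.61 to 36.7 in COM and 2.33 to 7.33 in COM+Met. In COM against NC 3 of them were called lower and 1, Pdgfrb, higher (1.43, limma adjusted p = 0.000403). In COM+Met against COM 3 of 4 tested were called lower and 0 higher, where 1.61% of all genes were lower. None of 8 T and NK cell markers and none of 5 B cell markers averaged 1 FPKM or more, with sums of at most 3.84 and 0.758 FPKM.

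Over all 18 samples the members apart from Slfn9 followed each other, with Pearson's r of log2(FPKM + 1) from 0.867 (Slfn2 and Slfn4) to 0.985 (Slfn1 and Slfn8), while Slfn9 had 0.273 to 0.521 with the others. The points share groups and sample sets, so these values describe the table and carry no p. The genes outside the family most like Slfn1 were Rnf213 (0.998), Ifit3b (0.998) and Stat2 (0.997). Those most like Slfn8 were Ifi209 (0.997), Dtx3l (0.996) and Ddx58 (0.996), and those most like Slfn5 were Rtp4 (0.996), Ifi211 (0.992) and Clec4e (0.990). Several of these, such as Stat2, Ifit3b, Ddx58 and Rtp4, are known interferon-stimulated genes. Slfn4 came closest to Pfkfb3, Siglece and Ms4a6b (0.994 to 0.991), Slfn2 to Nrp2 (0.989), Irf1 (0.986) and Ccrl2 (0.984), and Slfn3 to genes that included Zcchc4 (0.972) and Lgals3bp (0.965). For Slfn9 no gene came as close, and the nearest were Rnf139, Anp32a (0.901) and Rbm43 (0.900).

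After the group means were taken out, the same measure described what moved together within groups. Those deviations still hold the steps between COM-1 to COM-3 and COM-4 to COM-6, and between NC-1 to NC-4 and NC-5 and NC-6. How far the values below restate these steps was not tested. Slfn1 then went with Rnf213, Ms4a4c and Rsad2, Slfn4 with Cmpk2, Mx2 and Nos2, and Slfn8 with Ifi205, Ifi203 and Zcchc2. Slfn2 went with Tnf, Saa3 and Isg15, Slfn5 with Rasgef1b, Rtp4 and Ptgs2, and Slfn9 with Lims1, Tlr3 and Asah2. Among the members, Slfn1, Slfn4 and Slfn8 had values of 0.951 to 0.982 with each other, and Slfn9 had 0.735 to 0.786 with these 3. Slfn3 had at most 0.361 with any member, so within groups it followed the family least, and its own nearest gene was Ncbp2 (0.852).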

How the data were processed

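TruSeq libraries of total RNA from cocultured BMDMs were sequenced in 18 samples, which their titles place in NC, COM or COM+Met (6 in each). The authors deposited FPKM values per gene and sample. Bowtie 0.12.2 and 2 mouse builds, mm8 and mm9, appear in the submitters' processing notes. The quantifier, its annotation and its use of strand were not given in the sources used here. FPKM is scaled to each sample's total, so a gene can fall when abundant genes rise. The low values did not give back whole reads, so the depth is unknown. All 18 sample columns were used.

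Values were transformed to log2(FPKM + 1), which understates the change of low genes. In each comparison of 12 samples, genes averaging 1 FPKM or more entered limma 3.58.1 (lmFit, eBayes with a trend, R 4.3.3), and p-values were adjusted by Benjamini-Hochberg across all of them. Genes were called at an adjusted p below 0.05 and at least 2-fold. A two-sided exact permutation test of mean log2 values was run for each member as well. No covariate was used. Samples with identical values were looked for and 0 pairs were found. The steps were tested on simulated data. Positions came from GENCODE M21 on GRCm38 and promoter windows from RefSeq on GRCm38.p6, both matched by gene and not converted between builds. Tables and plots were made in Python 3.11.15 (numpy 2.4.6, pandas 2.3.3, matplotlib 3.10.9).

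The members, the lists (type I interferon signalling, interferon-stimulated effectors, quiescence and growth arrest, proliferation, chromosome 11 neighbours, other Schlafen-family genes and markers of cell types) and the sets of samples left out were chosen with earlier results of these data known. Named were all members, the other family genes, per pathway list the 3 largest rises and 3 largest falls among called genes in COM against NC, and per member the 3 genes outside the family with the highest r, over 18 samples and after the group means were removed. Of the genes so chosen, 2 are not reported here. Alternatives were pseudocounts of 0.1 and 5, no filter or one of 5 FPKM, rescaling to equal sums (TPM), size factors, quantile normalisation, no fold limit, a replicate block, a fit of all 18 samples, sample weights, each sample left out in turn, and NC-5 and NC-6, COM-1 to COM-3 or COM-4 to COM-6 left out. The list counts without these sets were added after the data had been seen.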

Additional observations from a re-analysis of the deposited data

Results flagged for a closer look

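In 21 sets of 6 samples (7 members in 3 groups), 1 sample lay far from the rest: Slfn1 in COM+Met-1, at 102.504 FPKM, below the 117 to 124 FPKM of the other 5 samples. Its gap to the nearest sample was 0.649 of the group's range, above Dixon's 95% critical value. Chance flags about 1 in 20 such sets.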

How the results depend on the processing

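In COM against NC the count of members called was 6, and in the alternatives it ran from 5 to 7. Leaving out each sample in turn gave 5 to 6 (5 without NC-3), 0 to 0 in COM+Met against COM and 6 to 6 in COM+Met against NC. In COM+Met against COM the count of 0 became 1 with no fold limit (Slfn3), 3 with sample weights, 3 without COM-4 to COM-6 and 1 without COM-1 to COM-3. With sample weights Slfn1 (1.65), Slfn8 (1.07) and Slfn9 (1.59) were called higher there, where 2.08% of all genes were (0.608% without weights), and Slfn4 turned to 0.093. Without COM-4 to COM-6 Slfn4 turned to 0.19, and without COM-1 to COM-3 Slfn1 (-0.59), Slfn5 (-0.23), Slfn8 (-0.82) and Slfn9 (-0.98) turned below 0. Slfn8 also turned with single samples left out, to -0.045, -0.041 or -0.016 when COM-2, COM-1 or COM-3 was dropped, in a range of -0.045 to 0.45. In COM against NC Slfn9 turned to -0.69 with sample weights, to -0.15 without COM-6 (range over single samples left out -0.15 to 0.53) and to -1.06 without COM-4 to COM-6. Slfn2 and Slfn3 fell under 2-fold in COM against NC, Slfn2 with sample weights (0.60) and Slfn3 with a pseudocount of 5 (0.71), and Slfn3 also in COM+Met against NC with a pseudocount of 5 (1.00). The causes were not tested. Slfn1, Slfn4, Slfn5 and Slfn8 stayed called higher in COM against NC under each of 25 alternatives and in COM+Met against NC under each of 23. The unknown depth limits the low values of Slfn1 and Slfn4 in NC.

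The replicate numbers did not pair the samples. Same-numbered deviations from the group means correlated at -0.110 to -0.026 in COM against NC, -0.225 to 0.034 in COM+Met against COM and -0.104 to 0.056 in COM+Met against NC, and 0 of 6 samples correlated best with their own number. With a replicate block 6, 0 and 6 members were called in the 3 comparisons, and 1920, 202 and 2080 genes in all, against 1926, 230 and 2078 without it. The adjusted p of Slfn3 in COM+Met against COM was 0.0575 with the block, at the same estimate of 0.38.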
